A study of Homo sapiens with 16 samples.

Results

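Histone lysine methyltransferases and demethylases were followed in the human embryonic kidney line HEK293 during short stimulation with a phorbol ester, a mineralocorticoid receptor agonist, or both. The members were all genes named KDM, KMT or SETD with a number, together with EZH1, EZH2, SUV39H1, SUV39H2, EHMT1, EHMT2, NSD1, DOT1L, SETDB1 and SETDB2. This gave 46 of the 18132 genes that had a probe set of their own on the array. Of these, 44 were bright enough to test, among 12495 tested genes in all. KDM5D and KDM4E fell below the brightness filter and were not tested. The cells of every group had been transfected for 24 h with 500 ng per well of a plasmid expressing the mineralocorticoid receptor (MR, gene NR3C2). Treatment lasted 4 h and consisted of vehicle alone, DOC (a mineralocorticoid) at 100 nM, PMA (a phorbol ester and protein kinase C activator) at 10 nM, or DOC plus PMA. Each of the 4 groups held 4 arrays numbered as biological replicates, and p-values measure the spread between these. Cells lacking the plasmid were not analysed here, so the part of the receptor in any response was not tested.

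Lysines in the tails and core of histones carry methyl groups that mark chromatin states. Methylation of H3K4, H3K36 and H3K79 is typical of active genes, and that of H3K9 and H3K27 of silenced ones. Methyltransferases, nearly all with a SET catalytic domain, write these marks, whereas DOT1L writes H3K79 methylation without a SET domain. Demethylases erase them, either as flavin-dependent amine oxidases (KDM1A and KDM1B) or as JmjC-domain dioxygenases, which need iron and 2-oxoglutarate. RNA levels of the enzymes were measured, and histone marks were not.

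All signals below are log2 values, so a difference of 1 is a doubling of signal, and a gene passed at an adjusted p under 0.05 (limma, Benjamini-Hochberg over all 12495 genes). Known targets responded: EGR1 rose by 5.63 ± 0.13 (SE) and FOS by 5.65 ± 0.11 with PMA, and SGK1 rose by 0.93 ± 0.08 with DOC. SGK1 is the only gene given here of 3 chosen to check the DOC response. NR3C2 had a mean signal of 7.43 in vehicle. Of 8 markers of the HEK293 line, 7 lay above the median of every array in each group, and PAX2 did not. Of 7 fibroblast markers none did, of 6 leukocyte markers at most 1, and of 7 endothelial markers 1, or 2 with PMA. The mean leukocyte marker level was 3.61 to 3.82 over the vehicle arrays and 3.86 to 3.94 over the PMA arrays. The mean HEK293 marker level was 9.11 to 9.33 and 9.60 to 9.72. The part of these shifts in the results was not tested. Earlier results had shown 3 arrays to stand apart together, namely replicate 2 of PMA, replicate 1 of DOC and replicate 2 of DOC plus PMA. Over all genes their deviations from the group means correlated at 0.425 to 0.554. The enzymes shared in this. PMA replicate 2 was the highest array of its group for 36 of the 44 members and the lowest for 7, DOC replicate 1 the highest for 24, and DOC plus PMA replicate 2 the highest for 27. PMA replicate 2 was the highest or lowest for 97.7% of the members and 72.5% of all genes. For DOC replicate 1 these shares were 75.0% and 69.4%, and for DOC plus PMA replicate 2 they were 70.5% and 59.9%. Results are therefore also given without these 3 arrays.

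PMA moved individual enzymes in both directions and left the family's centre near 0. Against vehicle, 9 members rose, 9 fell and 26 did not pass. The rises were led by the H3K27 demethylase KDM6B and the H3K79 methyltransferase DOT1L, and the falls by the H3K9 demethylase KDM4D and the H3K9 methyltransferase EHMT2. The members that passed were 40.9% of those tested, a share no larger than the 47.0% of all genes. By direction, 17.7% of all genes passed as higher and 29.3% as lower. These shares are the background for every count of PMA against vehicle below. The median change of the members was 0.02, against −0.04 for all genes. It was −0.08 without the 3 arrays. With cyclic loess scaling it was 0.05, and with a common median 0.10, against 0.00 and 0.05 for all genes. The sign of the centre thus depended on the arrays and the scaling. Without the 3 arrays, 9 members rose and 16 fell. Shifting every array to a common median gave 16 rises and 8 falls, and it moved the share of higher calls among all called genes from 37.6% to 55.4%. Splitting the family by activity, 6 of 17 demethylases rose and 3 fell, while 3 of 27 methyltransferases or related SET proteins rose and 6 fell.

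**Figure D1:**
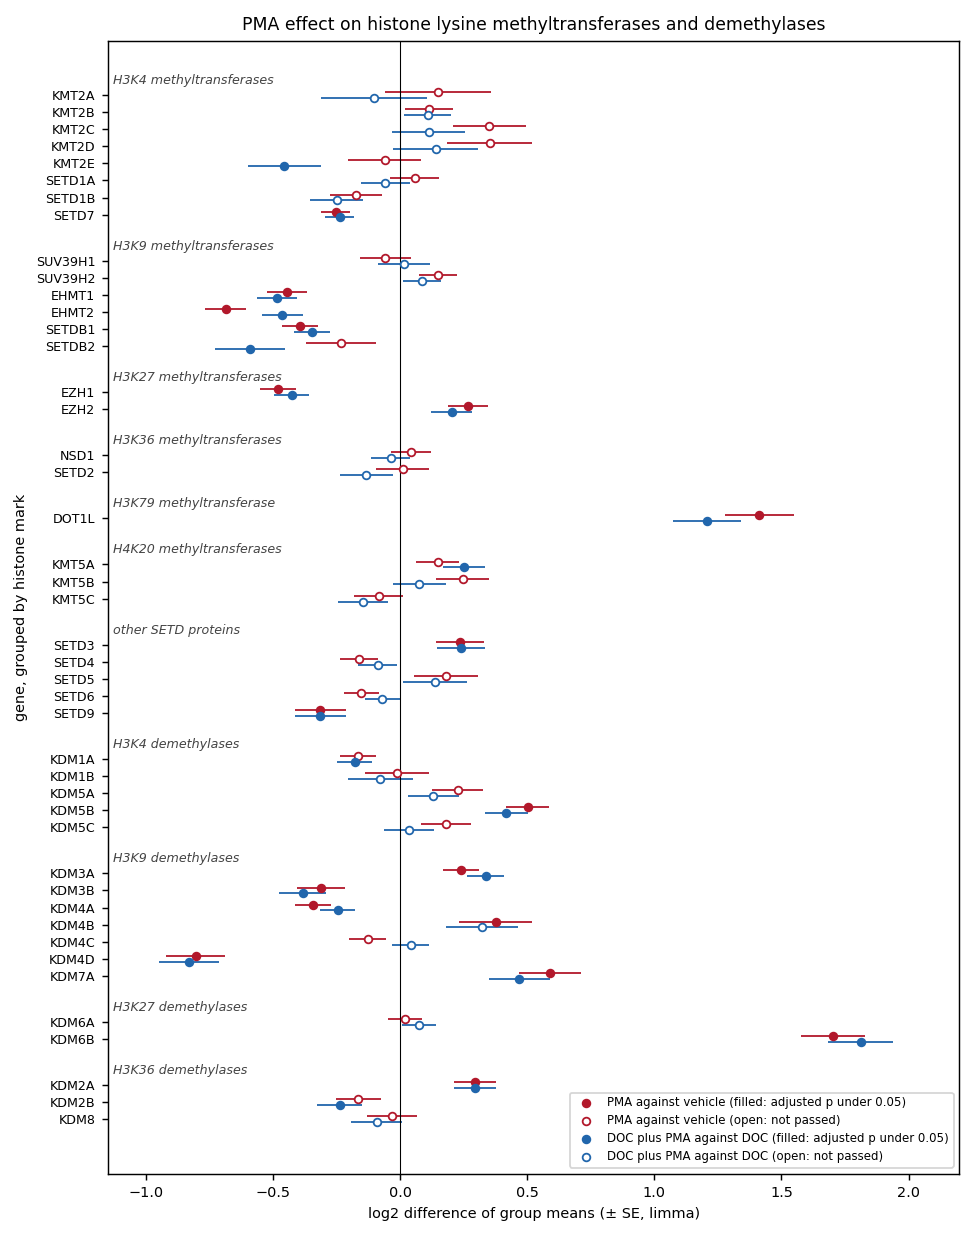
Log2 difference of group means (± SE, limma) for each tested enzyme, grouped by the histone mark it acts on, for PMA against vehicle and for DOC plus PMA against DOC. Filled symbols passed at an adjusted p under 0.05. KDM6B at 1.70 and 1.81 and DOT1L at 1.41 and 1.21 stand to the right of all other members, and KDM4D at −0.80 and −0.83 stands farthest to the left.

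PMA was given both without and with DOC, and these 2 comparisons share no array. Their p-values still use a common estimate of the spread from all 16 arrays. The 3 arrays that deviated together also lie in both comparisons, so the 2 sets of calls are not independent. With DOC present, 9 members rose, 13 fell and 22 did not pass (50.0% passed, against 42.6% of all genes, 15.7% higher and 26.9% lower). In all, 17 members passed in the same direction in both comparisons, which is 94.4% of the 18 that passed without DOC and 77.3% of the 22 that passed with it. Over all genes these shares were 79.2% and 87.3%, and 37.2% of all genes passed in both (13.4% higher and 23.7% lower). The 8 that rose in both were KDM6B, DOT1L, KDM7A, KDM5B, KDM2A, KDM3A, EZH2 and SETD3. The 9 that fell in both were KDM4D, EHMT2, EZH1, EHMT1, SETDB1, KDM4A, SETD9, KDM3B and SETD7. Without the 3 arrays EZH2 and SETD9 no longer passed with DOC present. KDM4B passed only without DOC, and SETDB2, KMT2E, KDM2B, KDM1A and KMT5A only with it. This division depended on the probe sets and arrays used. With averaged probe sets SETDB2, KMT2E, KDM1A and KMT5A passed in both comparisons, and KDM4B and KDM2B in neither. It also changed without the 3 arrays. Without them KDM4B passed only with DOC (0.39, adjusted p = 0.0218), KDM1A (−0.20, adjusted p = 0.0169) and KMT5A (0.19, adjusted p = 0.0488) passed only without it, and SETDB2, KMT2E and KDM2B passed in both. For none of these 6 did the difference between both PMA effects pass (interaction, below). No member passed in opposite directions, and 21 passed in neither comparison. KDM6B, DOT1L and KDM4D were the only members that passed in both with a change of at least 0.5 in each.

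H3K27 methylation is written by EZH2 or EZH1 within Polycomb repressive complex 2 (PRC2) and erased by KDM6A and KDM6B. KDM6B, a JmjC demethylase, had signals of 3.66, 3.47, 4.12 and 3.99 on the vehicle arrays and of 5.50, 5.38, 5.62 and 5.56 on the PMA arrays. With DOC they were 3.85, 3.47, 3.56 and 3.58, and with DOC plus PMA 5.44, 5.36, 5.68 and 5.22. Every array with PMA thus lay above every array without it. The change was 1.70 ± 0.13 without DOC (3.25-fold, adjusted p = 5.80e-09, limma, n = 4 per group) and 1.81 ± 0.13 with DOC (3.51-fold, adjusted p = 2.95e-09). Of the 8 arrays without PMA, only 1 reached the brightness limit of the filter. KDM6B was therefore tested because of its level with PMA, and its folds and p-values rest on a control signal at or below that limit, where a fold can be understated. With no filter KDM6B also passed (adjusted p = 4.06e-09), and a filter at the 60th percentile removed it from the test. Its other kept probe set gave 1.61. The paralogue KDM6A, encoded on the X chromosome, had mean signals of 8.45 ± 0.05 (SD, n = 4) in vehicle and 8.47 ± 0.06 with PMA, a difference of 0.02 ± 0.07 that did not pass (adjusted p = 0.827).

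The promoter of KDM6B is shown because this gene had the largest rise, and that of KDM4D, described below, because it had the largest fall. Each sequence covers the 250 bases before an annotated start (RefSeq, GRCh38.p14, plus strand), in lower case, with matches to the GC box GGGCGG or the CCAAT box in capitals, on either strand. KDM6B has 2 annotated starts in the table, and the probe sets do not tell which was used.
KDM6B, chr17:7833967-7834216: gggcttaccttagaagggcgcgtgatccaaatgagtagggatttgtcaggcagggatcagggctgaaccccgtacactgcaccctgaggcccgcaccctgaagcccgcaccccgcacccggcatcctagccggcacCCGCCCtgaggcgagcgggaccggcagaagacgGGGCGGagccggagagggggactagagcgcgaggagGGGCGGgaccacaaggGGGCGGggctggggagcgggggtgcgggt
KDM6B, chr17:7839667-7839916: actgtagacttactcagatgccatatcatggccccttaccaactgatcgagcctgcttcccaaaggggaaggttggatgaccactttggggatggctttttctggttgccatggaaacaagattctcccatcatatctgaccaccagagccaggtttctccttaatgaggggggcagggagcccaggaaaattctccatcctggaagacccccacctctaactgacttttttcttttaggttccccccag
KDM4D, chr11:94973459-94973708: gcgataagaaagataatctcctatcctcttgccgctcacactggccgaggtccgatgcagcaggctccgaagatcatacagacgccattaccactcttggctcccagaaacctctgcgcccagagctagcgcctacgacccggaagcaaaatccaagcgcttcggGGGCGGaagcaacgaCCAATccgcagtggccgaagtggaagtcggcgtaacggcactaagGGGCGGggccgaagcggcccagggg
The upstream KDM6B window holds 4 GC boxes and has a GC content of 70.4%, the other KDM6B window holds none at 50.4%, and the KDM4D window holds 2 GC boxes and 1 CCAAT box at 60.8%. Promoter windows were found for 43 of the 46 members (not DOT1L, SETD1B or KDM4E). A GC box lay in some window of all 8 matched members that rose, 6 of 9 that fell and 21 of 25 that did not pass. Counted per window, and thus not on the same basis, 42.6% of all 35116 promoters had it. The AP-1 motif TGANTCA, bound by FOS and JUN proteins, was found in 1 of the 8 (KDM3A) and in 0 of the 9, against 6.57% of all promoters. The cAMP response element, the EGR site and the CArG box (1.65%, 0.72% and 1.16% of all promoters) were in none of these 17. The TATA box TATAAA (10.7%) and the palindromic corticosteroid response element (0.00285%) were in none of the 42 matched and tested members. These are letter matches in 250 bases and no evidence of binding or its absence.

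The H3K27 methyltransferases moved in opposite directions with PMA. EZH1 had signals of 6.28, 6.33, 6.27 and 6.21 in vehicle and of 5.68, 5.92, 5.80 and 5.80 with PMA, with no overlap. It fell by 0.48 ± 0.07 (adjusted p = 2.21e-05), and by 0.43 ± 0.07 with DOC present (adjusted p = 8.26e-05). EZH2 had signals of 8.26, 8.27, 8.37 and 8.58 in vehicle and of 8.62, 8.54, 8.75 and 8.64 with PMA, where the lowest PMA array lay below the highest vehicle array. It rose by 0.27 ± 0.08 (adjusted p = 0.00969). With DOC present EZH2 rose by 0.20 ± 0.08 (adjusted p = 0.0473), and that call was lost without the 3 arrays (0.18, adjusted p = 0.122) and in 10 of the 16 fits that left out 1 array (adjusted p up to 0.148). Of these 16 fits it held only without vehicle replicate 1, 2 or 4, PMA replicate 2 or 3, or DOC plus PMA replicate 3. The call was also lost with averaged probe sets (0.08, adjusted p = 0.360) and with no filter (adjusted p = 0.0740). Without DOC the averaged probe sets passed (0.23, adjusted p = 0.0110), although the other kept EZH2 probe set, at 0.20, did not. The per-array difference between the EZH2 and EZH1 signals was 2.09 ± 0.20 (SD, n = 4) in vehicle and 2.84 ± 0.15 with PMA. It was 2.24 ± 0.15 with DOC and 2.87 ± 0.19 with DOC plus PMA. The per-array values of EZH1, EZH2 and of EHMT2, KDM7A and KDM5B below were chosen for printing after they had been seen.

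Among 11 tested partner genes of PRC2, 6 rose and 1 fell with PMA, with a median of 0.31 (63.6% passed, against 47.0% of all genes). The accessory subunits AEBP2 and MTF2 rose by 0.83 ± 0.09 and 0.47 ± 0.12, the histone-binding subunit RBBP7 by 0.53 ± 0.06 and the inhibitory cofactor EPOP by 0.36 ± 0.10. The core subunits EED and SUZ12 also rose, by 0.34 ± 0.09 and 0.31 ± 0.09. RBBP4 fell by 0.17 ± 0.07 (adjusted p = 0.0471), a call that was lost without the 3 arrays, with a common median and in 12 of the 16 fits that left out 1 array (adjusted p up to 0.123). With DOC present 4 of the 11 rose and 0 fell, with a median of 0.22 (36.4% passed, against 42.6% of all genes). In that comparison 7 rose and 0 fell with a common median, and 5 rose and 2 fell without the 3 arrays.

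**Figure D2:**
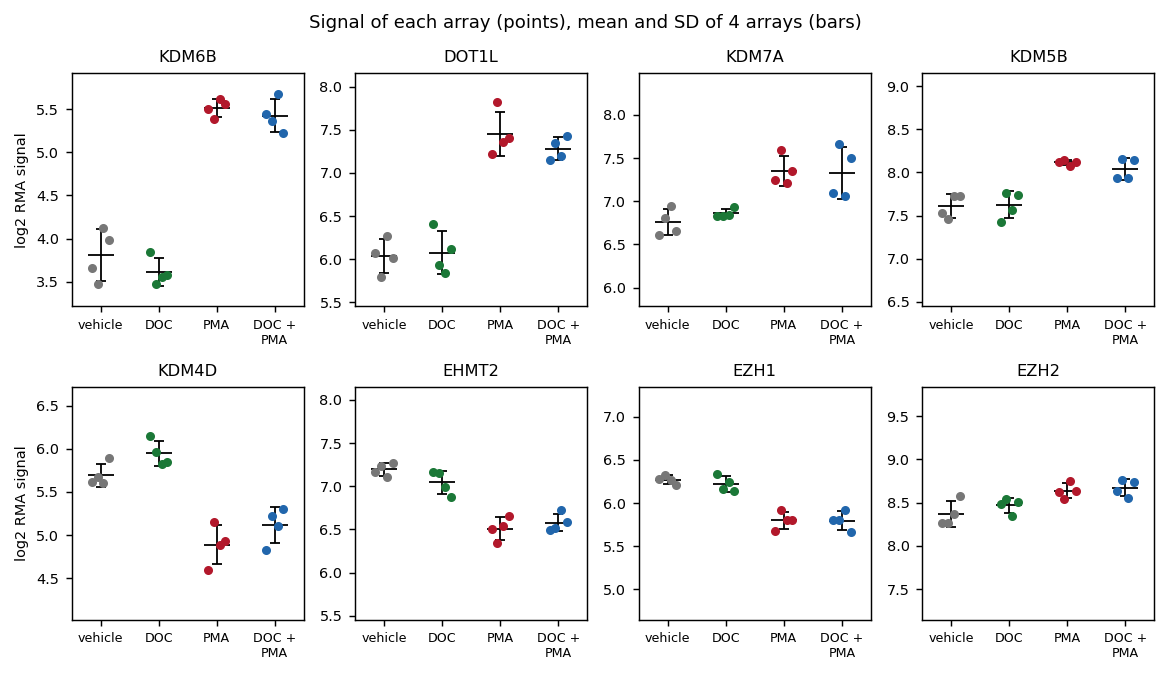
Log2 RMA signal on each of the 16 arrays for the enzymes whose array values are printed, 1 panel per gene, with 4 points per group and bars for the group mean and SD; the panels have different centres and the same span. In the KDM6B panel all PMA and DOC plus PMA arrays lie at 5.22 or above and all others at 4.12 or below.

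DOT1L methylates H3K79 in the body of transcribed genes. Its signals were 6.07, 5.79, 6.27 and 6.02 in vehicle and 7.22, 7.82, 7.36 and 7.41 with PMA. With DOC they were 6.41, 5.94, 5.84 and 6.12, and with DOC plus PMA 7.15, 7.35, 7.20 and 7.43. The arrays with and without PMA did not overlap. DOT1L rose by 1.41 ± 0.13 (2.66-fold, adjusted p = 1.34e-07) and, with DOC present, by 1.21 ± 0.13 (2.31-fold, adjusted p = 1.04e-06). Without the 3 arrays both values were 1.29. Its other kept probe set gave 0.67 and also passed. Of 7 partner genes of DOT1L, AFF4, a scaffold of the super elongation complex, rose by 0.54 ± 0.12. The cofactors MLLT10 and MLLT3, which bind DOT1L and recruit it to chromatin, fell by 0.73 ± 0.07 and 0.52 ± 0.08. The other 4 did not pass.

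Writers of H3K9 methylation fell or did not pass with PMA. Of 6, 3 fell and 0 rose (50.0%, near the 47.0% of all genes that passed). EHMT2 (G9a), which with EHMT1 (GLP) forms the dimer that writes mono- and dimethyl H3K9 in euchromatin, had signals of 7.16, 7.24, 7.11 and 7.27 in vehicle and of 6.51, 6.34, 6.54 and 6.65 with PMA. All PMA arrays were lower. EHMT2 fell by 0.69 ± 0.08 (1.61-fold lower, adjusted p = 1.69e-06), and by 0.46 ± 0.08 with DOC present (adjusted p = 1.38e-04). EHMT1 fell by 0.44 ± 0.08 and by 0.48 ± 0.08, again with no overlap between the groups in either comparison. Its other kept probe set gave 0.00, and with all its probe sets averaged the fall no longer passed (−0.22, adjusted p = 0.0663; −0.11 with DOC, adjusted p = 0.398). SETDB1, which trimethylates H3K9 at repeats together with the KRAB corepressor, fell by 0.39 ± 0.07 and by 0.35 ± 0.07. Its other kept probe set gave −0.08 without DOC and did not pass, and with averaged probe sets the changes were −0.24 and −0.19, which passed. SETDB2 was at −0.23 ± 0.14 without DOC and did not pass (adjusted p = 0.176), and fell by 0.59 ± 0.14 with DOC present (adjusted p = 0.00193). The heterochromatin enzymes SUV39H1 and SUV39H2 passed in neither comparison, at −0.06 ± 0.10 and 0.15 ± 0.07 without DOC.

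Of 7 erasers of H3K9 methylation 3 rose, 3 fell and KDM4C did not pass, when 17.7% of all genes passed as higher and 29.3% as lower. The rise of KDM4B, counted here, was lost in 10 of the 27 alternatives. KDM4D, which removes di- and trimethyl groups from H3K9, had signals of 5.61, 5.67, 5.60 and 5.89 in vehicle and of 4.59, 5.15, 4.89 and 4.93 with PMA. With DOC they were 6.15, 5.96, 5.82 and 5.85, and with DOC plus PMA 4.83, 5.22, 5.11 and 5.30. Every array with PMA was below every array without it. KDM4D fell by 0.80 ± 0.12 (1.75-fold lower, adjusted p = 2.02e-05) and, with DOC present, by 0.83 ± 0.12 (1.78-fold lower, adjusted p = 1.60e-05). Its other kept probe set gave −0.46.

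KDM7A, a demethylase of H3K9 and H3K27 with a PHD finger, had signals of 6.61, 6.81, 6.95 and 6.66 in vehicle and of 7.24, 7.59, 7.21 and 7.35 with PMA. All PMA arrays were higher. KDM7A rose by 0.59 ± 0.12 (adjusted p = 6.04e-04), and by 0.47 ± 0.12 with DOC present (adjusted p = 0.00423). The KDM3 paralogues, erasers of mono- and dimethyl H3K9, went opposite ways. KDM3A rose by 0.24 ± 0.07 and 0.34 ± 0.07, and KDM3B fell by 0.31 ± 0.09 and 0.38 ± 0.09. KDM4A, which acts on H3K9 and H3K36, fell by 0.34 ± 0.07 and 0.25 ± 0.07. Its other kept probe set gave −0.08 without DOC (−0.21 when averaged), and with a common median the call with DOC present was lost (−0.17, adjusted p = 0.0922).

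KDM4B rose by 0.38 ± 0.14 without DOC (adjusted p = 0.0389). That call was lost without the 3 arrays (0.25, adjusted p = 0.090) and when any of vehicle replicates 1, 3 and 4 or PMA replicates 1, 2 and 3 was left out (adjusted p 0.069 to 0.142). Both other kept probe sets of KDM4B were slightly below 0, at −0.08 and −0.06. With averaged probe sets the change of KDM4B was 0.08 and did not pass (adjusted p = 0.347).

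Among 10 readers of H3K9 methylation and partners of these enzymes, 2 rose and 2 fell with PMA. ATF7IP, the partner that stabilises SETDB1, rose by 0.53 ± 0.07, and TASOR, of the HUSH silencing complex, by 0.36 ± 0.07. The heterochromatin proteins CBX1 and CBX5 fell by 0.48 ± 0.07 and 0.39 ± 0.14. The TASOR call was lost with averaged probe sets. The CBX5 call (adjusted p = 0.0280) was lost when vehicle replicate 1, 2 or 4 was left out, and likewise PMA replicate 3 or 4 (adjusted p 0.054 to 0.0716), and with either change of scaling (cyclic loess or a common median).

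H3K4 is methylated by the KMT2 and SETD1 enzymes within COMPASS complexes and, as monomethylation, by SETD7. Of 8 such genes, only SETD7 passed without DOC. It fell by 0.25 ± 0.06 (adjusted p = 0.00151) and with DOC present by 0.24 ± 0.06 (adjusted p = 0.00270), with no overlap in either comparison. KMT2A to KMT2D were at 0.15 ± 0.21, 0.11 ± 0.09, 0.35 ± 0.14 and 0.35 ± 0.17, and SETD1A and SETD1B at 0.06 ± 0.10 and −0.17 ± 0.10. KMT2C lay close to the threshold (adjusted p = 0.0543) and passed in 12 of the 27 alternatives, among them averaged probe sets (0.60, adjusted p = 0.0311). KMT2E, a divergent member without known methyltransferase activity, was at −0.06 ± 0.14 without DOC and fell by 0.46 ± 0.14 with DOC present (adjusted p = 0.0156). In that comparison KMT2E did not pass without DOC plus PMA replicate 3 (−0.38, adjusted p = 0.0561). PMA replicate 2 had the highest KMT2E signal of its group, 7.99 against 7.38, 7.24 and 7.26 on the other PMA arrays. Without the 3 arrays the changes of KMT2E were −0.23 and −0.48, and both passed.

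Of 12 partner genes of COMPASS, 7 fell with PMA and 0 rose, with a median of −0.19. Falls also outnumbered rises over all genes, of which 29.3% passed as lower and 17.7% as higher. PAGR1, a subunit of the KMT2C and KMT2D complexes, fell by 1.04 ± 0.07 (adjusted p = 6.32e-10) and PAXIP1, of the same complexes, by 0.44 ± 0.07. MEN1, the scaffold of the KMT2A and KMT2B complexes, fell by 0.61 ± 0.07, and the core subunit ASH2L by 0.60 ± 0.06. With a common median 4 of the 12 fell, with cyclic loess 6, and none rose in either. With DOC present 6 fell and 0 rose, when 26.9% of all genes passed as lower and 15.7% as higher.

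H3K4 is demethylated by KDM1A (LSD1) and KDM1B and by the KDM5 enzymes. KDM5B was the only one of 5 to pass without DOC. Its signals were 7.53, 7.46, 7.73 and 7.73 in vehicle and 8.12, 8.14, 8.08 and 8.12 with PMA, all higher. KDM5B rose by 0.50 ± 0.09 (adjusted p = 1.14e-04) and with DOC present by 0.42 ± 0.09 (adjusted p = 6.96e-04). KDM5A and KDM5C were at 0.23 ± 0.10 and 0.18 ± 0.10 and did not pass (adjusted p = 0.0727 and 0.144). All their PMA arrays lay above all vehicle arrays, as did those of 16.2% of all genes. With averaged probe sets KDM5C passed (0.21, adjusted p = 0.0127), and KDM5A did not (0.08, adjusted p = 0.518). With a common median KDM5A (0.31, adjusted p = 0.00809) and KDM5C (0.27, adjusted p = 0.0126) both passed. KDM1A was at −0.17 ± 0.07 without DOC (adjusted p = 0.0582) and fell by 0.18 ± 0.07 with it (adjusted p = 0.0463). The KDM1A call was lost without the 3 arrays (−0.16, adjusted p = 0.0739) and in 12 of the 16 fits that left out 1 array (adjusted p up to 0.138). It held only without PMA replicate 1 or 2, DOC replicate 4 or DOC plus PMA replicate 2. Among 9 partners of KDM1A in the CoREST complex, RCOR1, the scaffold that binds it to nucleosomes, rose by 1.11 ± 0.07 (adjusted p = 1.01e-09) and its paralogue RCOR3 fell by 0.49 ± 0.10. The other 7 did not pass.

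Of the H3K36 enzymes, 1 of 3 demethylases and 0 of 2 methyltransferases passed without DOC. The methyltransferases NSD1 and SETD2 passed in neither comparison, at 0.04 ± 0.08 and 0.01 ± 0.10 without DOC, although another NSD1 probe set passed at 0.40. KDM2A, an eraser of dimethyl H3K36 with a CpG-binding zinc finger, rose by 0.30 ± 0.08 (adjusted p = 0.00681) and by 0.29 ± 0.08 with DOC present, where the call was lost with averaged probe sets (0.23, adjusted p = 0.113). Its paralogue KDM2B was at −0.16 ± 0.09 and fell by 0.24 ± 0.09 with DOC present (adjusted p = 0.0371), a call lost without DOC replicate 1 or 4 or DOC plus PMA replicate 1, 3 or 4 (adjusted p 0.0686 to 0.126). The KDM2B call was also lost with no filter, with either change of scaling, and with averaged probe sets, where the change was −0.05 (adjusted p = 0.601). KDM8 was at −0.03 ± 0.10.

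None of the 3 H4K20 methyltransferases passed without DOC. KMT5A, which writes monomethyl H4K20, was at 0.15 ± 0.08, KMT5B at 0.25 ± 0.10 and KMT5C at −0.08 ± 0.10. KMT5A passed without DOC in 3 of the 27 alternatives, among them averaged probe sets (0.34, adjusted p = 9.74e-04). KMT5B passed in 8 of the 27, and KMT5C in 2 of 26. With DOC present KMT5A rose by 0.25 ± 0.08 (adjusted p = 0.0210). That call was lost without DOC replicate 1 (0.19, adjusted p = 0.0771), without DOC plus PMA replicate 3 (0.22, adjusted p = 0.0591) or 4 (0.20, adjusted p = 0.0828), and without the 3 arrays (0.20, adjusted p = 0.0628).

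Of the 5 other SETD genes, SETD9 fell and SETD3 rose, and SETD4, SETD5 and SETD6 passed in neither comparison. SETD3, an actin histidine methyltransferase, rose by 0.24 ± 0.09 in each comparison (adjusted p = 0.0463 and 0.0461). The SETD3 call was lost in 11 of the 16 fits that left out 1 array without DOC (adjusted p up to 0.164) and in 11 with it (adjusted p up to 0.150). It held without PMA replicate 1 or 3, DOC replicate 1 or DOC plus PMA replicate 3 in both comparisons, without DOC plus PMA replicate 2 in the first and without PMA replicate 2 in the second. SETD9 fell by 0.31 ± 0.10 in each comparison, and the calls were lost with either change of scaling. Without the 3 arrays the SETD9 call with DOC present was lost (−0.25, adjusted p = 0.0822), and that without DOC held (−0.36, adjusted p = 0.00946). Without DOC the SETD9 call was also lost on leaving out vehicle replicate 4 (−0.20, adjusted p = 0.0614) and on leaving out PMA replicate 1, where the change was −0.26 (adjusted p = 0.0547), and with DOC present without DOC plus PMA replicate 2 (−0.25, adjusted p = 0.0622).

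Of the 9 members that rose with PMA without DOC, 7 had all PMA arrays above all vehicle arrays, and of the 9 that fell, 7 had all PMA arrays below. With DOC present these counts were 7 of 9 and 10 of 13. Over all genes, passed or not, 16.2% separated upward and 26.1% downward without DOC, and 14.2% and 24.7% with it. These shares are thus not on the same basis as the counts among passed members. A gene that passes tends to separate as well, so the counts add no support to the calls. Averaged over both levels of DOC, 11 members rose and 14 fell with PMA, when 57.2% of all genes passed (21.7% higher and 35.5% lower). Cells given both agents, set against the same vehicle arrays, had 8 members higher and 12 lower, when 43.8% of all genes passed (17.5% higher and 26.3% lower).

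**Figure D3:**
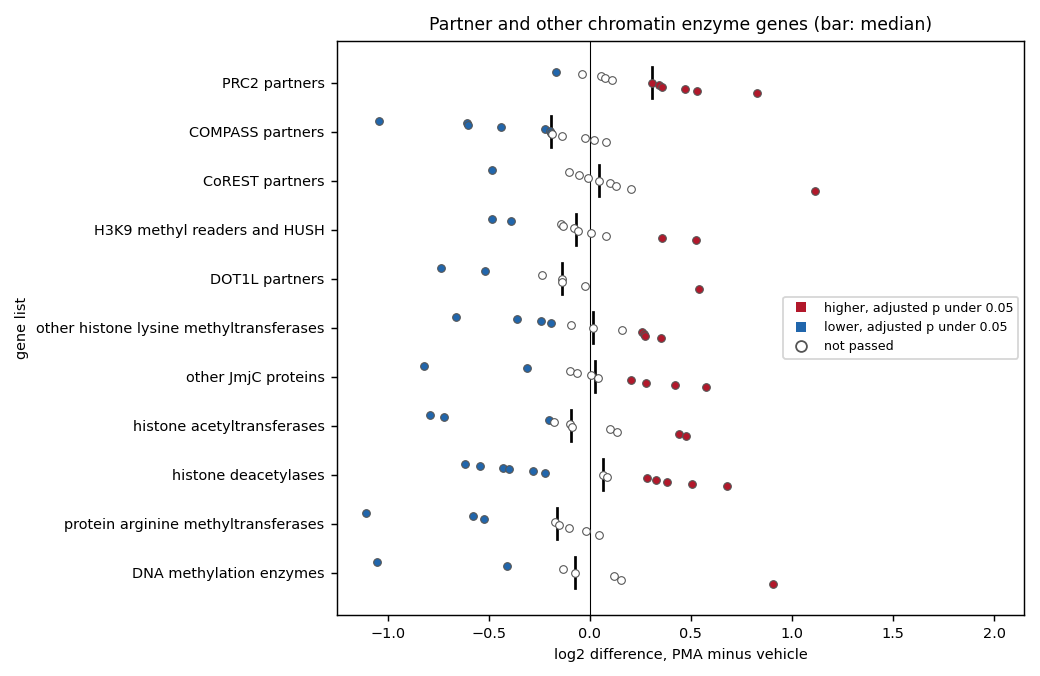
Log2 difference between PMA and vehicle for each tested gene of 11 lists of partners and other chromatin enzymes, with a black bar at the median of each list; filled symbols passed at an adjusted p under 0.05. The PRC2 list has its median at 0.31 and the COMPASS list at −0.19.

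Enzymes outside the naming rule also moved in both directions. Of 11 other histone lysine methyltransferases, 4 rose and 4 fell with PMA (72.7% passed, against 47.0% of all genes). With cyclic loess or a common median 5 rose and 2 fell. The falls of NSD2 and SMYD3 were lost with either change of scaling, and that of NSD2 with averaged probe sets (−0.02, adjusted p = 0.798). With DOC present 3 rose and 3 fell, when 42.6% of all genes passed. SMYD4 fell by 0.66 ± 0.07, and of the PRDM zinc finger proteins PRDM4 fell by 0.36 ± 0.09 and PRDM2 rose by 0.35 ± 0.06, both calls being lost with averaged probe sets. Of 10 other JmjC proteins, 4 rose and 2 fell. RIOX2, a ribosomal oxygenase, fell by 0.82 ± 0.09, and JMJD1C and JMJD6 rose by 0.58 ± 0.07 and 0.42 ± 0.08.

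The choice of probe set mattered for part of the family. The array held 156 probe sets for the members, of which 126 were bright enough, and 33 members had several of these. In 23 of the 33 all kept probe sets moved in the same direction with PMA. Of the 18 members that passed, 13 had several, and in 11 all had the same sign. KDM4B and SETD3 were the exceptions. Of the members that did not pass, 8 had another probe set that did. For KMT2E 5 of 8 others were lower, down to −0.75, for KMT5A 3 of 4 others were higher, up to 0.50, and for KMT2C 1 was at 0.92. For KDM4C other probe sets passed both at 0.30 and at −0.34, and for SETD4 the other was at 0.29 while the one used was at −0.16.

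**Figure D4:**
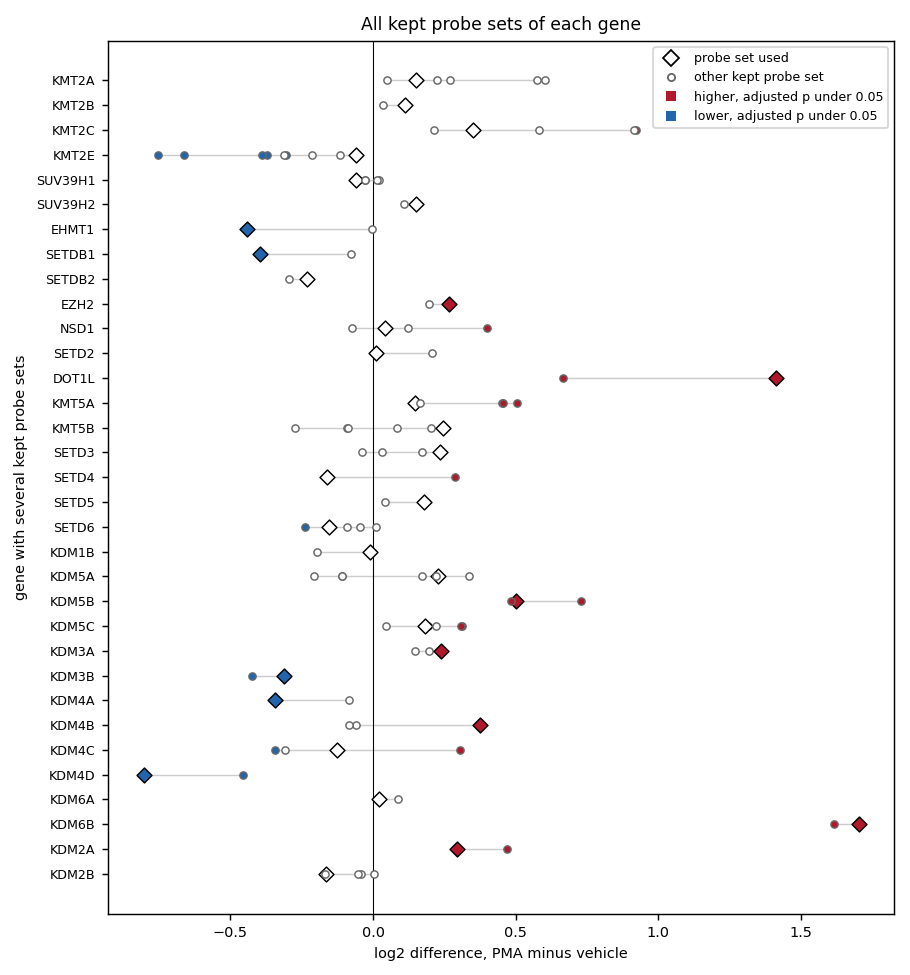
Log2 difference between PMA and vehicle for every kept probe set of the 33 members with several; the diamond is the brightest probe set, used for the gene. Filled symbols passed after adjustment over all 28226 kept single-gene probe sets, so SETD3, which passed among genes, is open here. The KDM6B probe sets lie at 1.70 and 1.61, and those of KMT2E spread from −0.06 to −0.75.

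DOC changed no member past the test. Of the 44, 0 passed for DOC against vehicle, where 15 genes in all passed (0.12%), and 1 had an unadjusted p under 0.05. With PMA present, for DOC plus PMA against PMA, 0 passed, where 48 genes in all passed (0.384%), and 2 had an unadjusted p under 0.05. The range of changes was −0.20 for KDM6B to 0.25 for KDM4D without PMA, and −0.34 for KMT2A to 0.23 for KDM4D with PMA. For 43 of the 44 members without PMA and 40 with PMA, the 95% confidence interval lay within 0.5 of 0 on either side. A miss of the threshold does not show that DOC left these genes as they were. The interval for KDM6B was −0.46 to 0.07 without PMA and −0.36 to 0.18 with PMA, and that for DOT1L −0.25 to 0.32 and −0.45 to 0.12.

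KDM4D was the member nearest to a DOC response. Its DOC effect averaged over both levels of PMA was 0.24 ± 0.08 (adjusted p = 0.621, limma), in the direction opposite to its PMA effect. For that average, 0 members and 0.432% of all genes passed. SETD4 was at 0.14 ± 0.05 (adjusted p = 0.860), and it was the 1 member whose DOC plus PMA arrays all lay above its PMA arrays, as did those of 2.0% of all genes. In the test of whether DOC altered the PMA effect, 0 members passed (0.088% of all genes), and none had an unadjusted p under 0.05. The interaction was 0.11 ± 0.18 for KDM6B, −0.21 ± 0.19 for DOT1L and −0.03 ± 0.17 for KDM4D. It ranged from −0.40 ± 0.20 for KMT2E and −0.36 ± 0.19 for SETDB2 to 0.22 ± 0.11 for EHMT2. Without the 3 arrays the interaction was −0.24 for KMT2E and −0.12 for SETDB2, and both genes then passed for PMA without DOC as well.

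**Figure D5:**
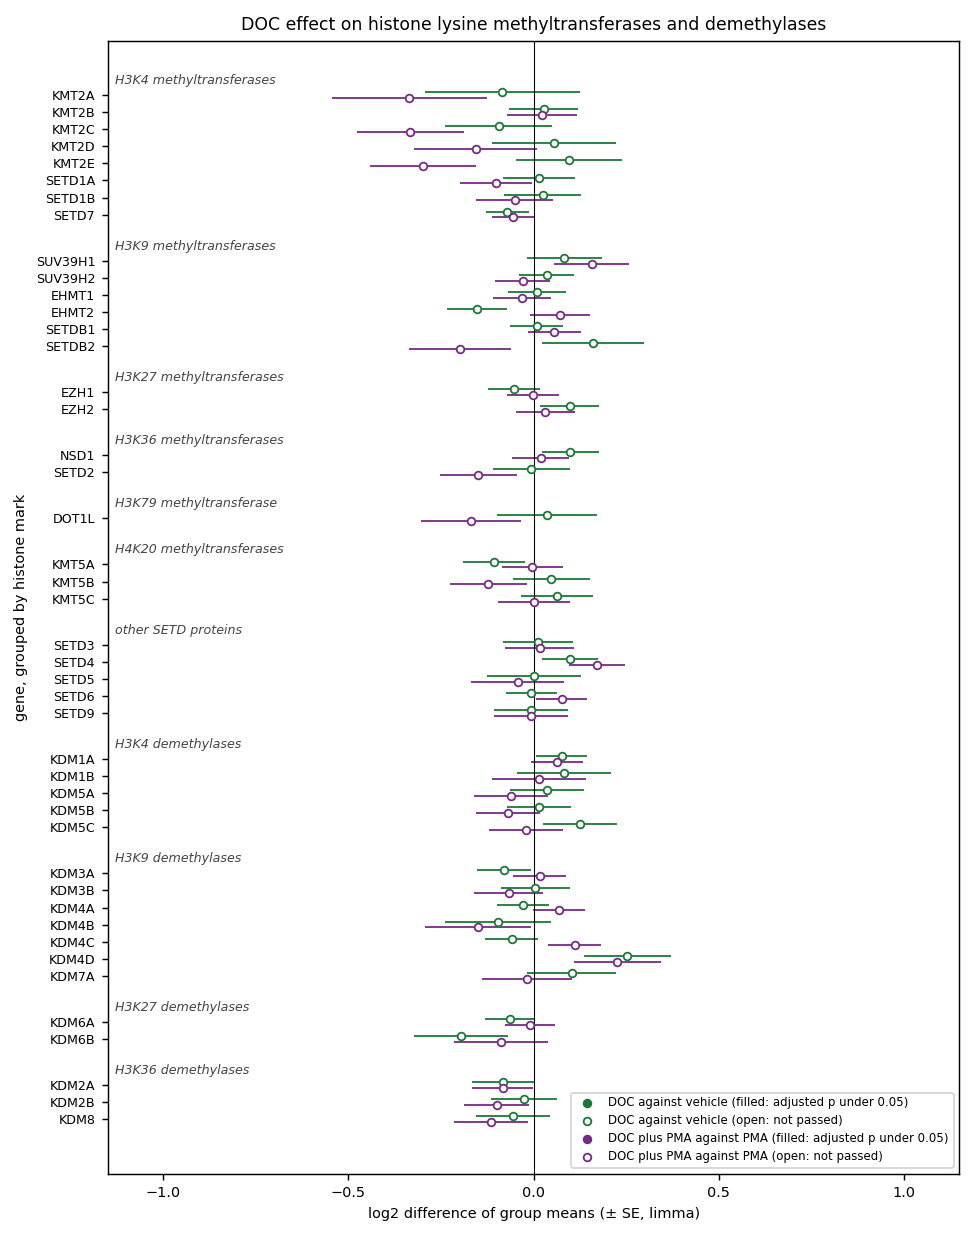
Log2 difference of group means (± SE, limma) for each tested enzyme for DOC against vehicle and for DOC plus PMA against PMA. All symbols are open because 0 members passed, and KDM4D is the only member above 0.20 in both comparisons.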

How the data were processed

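Biotin-labelled RNA of 16 HEK293 samples was read on Affymetrix PrimeView arrays, according to the labels. The authors deposited log2 signals, for which the submitters' processing notes name RMA and Affymetrix Expression Console. The sources used here give no versions. RMA forces all arrays to a common distribution, so a shift of all transcripts in the same direction cannot be seen. The platform annotation gave gene names and paired 44988 of 49293 with 1 gene, 1832 with several and 2473 with none; 44961 of the single-gene ones were updated by gene identifier. The table held 0 columns of other samples.

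A probe set was kept if at least 4 arrays had it at or above their 40th percentile, and the kept probe set with the highest mean represented its gene. Group means were fitted to all 16 arrays with limma 3.58.1 (R 4.3.3), tested on simulated data beforehand. Array number limits the precision. The members, gene lists, markers and the 3 deviating arrays were chosen with earlier results of these data known. Named with values were all members that passed for PMA against vehicle or for DOC, and of each list up to 4 passing genes with the largest changes; other members and genes were named after their values were seen. Values of every array were set for members passing with at least 0.5 in both PMA comparisons. Alternatives were averaged probe sets, other brightness filters, cyclic loess, a common median, array weights, an intensity trend, fits on 2 groups, a replicate block, and arrays left out. Replicate numbers were checked for pairing. Deviations of same-numbered arrays correlated above 0.1 in all 4 pairs only between PMA and DOC plus PMA (0.157 to 0.549). The check held no differently numbered pairs as a baseline. The 3 deviating arrays correlated at 0.425 to 0.554, although DOC replicate 1 differs in number from the others. The check therefore cannot show whether the numbers pair these groups. A block that assumed this pairing left DOC plus PMA against PMA at 0 members.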

Additional observations from a re-analysis of the deposited data

Results flagged for a closer look

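Of 92 groups of 4 arrays (23 members that passed in either PMA comparison, in 4 groups each), 7 held an array whose gap to the nearest other array was a larger part of the range of its group than Dixon's 95% limit allows. Chance alone gives about 1 in 20. Of the 7 values, 5 were on the 3 arrays that deviated together. KDM4A was low on DOC plus PMA replicate 1, at 7.66 against 7.76 to 7.77 on the others. KDM4B was high on DOC plus PMA replicate 2, at 7.47 against 7.28 to 7.30. KDM7A was high on DOC replicate 4, at 6.93 against 6.83 to 6.84. KMT5A was low on DOC replicate 1, at 7.58 against 7.80 to 7.84, and low on PMA replicate 2, at 7.88 against 8.04 to 8.07. SETD3 was high on DOC replicate 1, at 7.79 against 7.47 to 7.52. SETDB1 was high on DOC plus PMA replicate 2, at 6.75 against 6.57 to 6.60.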

How the results depend on the processing

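With averaged probe sets SETD4 changed sign past the threshold, from −0.09 (adjusted p = 0.383) to 0.17 (adjusted p = 0.0315) with DOC present and from −0.13 to 0.11 in the averaged PMA effect, and KDM5A went from 0.18 (adjusted p = 0.039) to −0.01 in the latter. No other member changed sign with a call on either side under the alternatives run. Over the members that passed in either PMA comparison, 1109 recomputed calls kept their side of the threshold, 98 were lost and 27 were gained. For PMA against vehicle, 16 members rose with a common median, and 14 fell with array weights. Without the 3 arrays 9 rose and 16 fell, and 17 of the 18 original calls were among these rises and falls. Leaving out 1 array gave 7 to 11 rises and 8 to 14 falls, with 14 falls without PMA replicate 2. With DOC present these ranges were 6 to 10 and 10 to 14. For the PMA effect averaged over DOC, 19 members rose with a common median. The filter at the 60th percentile removed KDM6B, KDM4D and SETD9 from the test. The replicate block over all 16 arrays gave 11 rises and 10 falls for PMA against vehicle, which include all 18 original calls, and 9 and 13 with DOC present. The replicate block within the 2 groups compared gave 10 and 9, and KDM3A (adjusted p = 0.0526) and SETD3 no longer passed. For DOC against vehicle, DOC plus PMA against PMA, the interaction and the averaged DOC effect, 0 members passed under each alternative run. The cause of these shifts was not tested. Dim signals limit KDM6B and KMT2D, the members not above the brightness limit on all arrays.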

Other observations

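Other chromatin-modifying enzymes also moved in both directions with PMA (PMA against vehicle unless stated, log2 ± SE, limma, n = 4 per group, where 47.0% of all genes passed). Of 10 histone acetyltransferases 2 rose and 3 fell. KAT6B fell by 0.79 ± 0.14 and KAT5 (TIP60) by 0.72 ± 0.08, while the coactivator EP300 rose by 0.47 ± 0.16 and KAT2B (PCAF) by 0.44 ± 0.11. The EP300 call (adjusted p = 0.0245) was lost in the 4 fits that left out replicate 1 or 2 of vehicle or of PMA (adjusted p 0.0659 to 0.0895). Of 13 histone deacetylases 5 rose and 6 fell (84.6%). The fall of HDAC8 was lost with either change of scaling and without the 3 arrays. Of the 16 fits that left out 1 array, it was lost in 5 (adjusted p 0.0579 to 0.133), and the rise of HDAC10 in 2. With DOC present 4 rose and 4 fell, when 42.6% of all genes passed. HDAC5 rose by 0.68 ± 0.08 and the NAD-dependent SIRT1 by 0.51 ± 0.10, and HDAC9 and HDAC11 fell by 0.62 ± 0.16 and 0.54 ± 0.12.

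Of 8 protein arginine methyltransferases 3 fell and 0 rose: PRMT2 by 1.11 ± 0.09 (adjusted p = 2.05e-08), PRMT6 by 0.58 ± 0.14 and PRMT9 by 0.52 ± 0.07. Among 7 DNA methylation enzymes the TET dioxygenases, which oxidise 5-methylcytosine, were divided. TET3 rose by 0.90 ± 0.12 (adjusted p = 5.09e-06), and TET1 and TET2 fell by 1.05 ± 0.11 and 0.41 ± 0.10. The other 4 did not pass.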
